A study of Mus musculus with 6 samples.

Results

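Ly6 surface antigens were examined in mouse leukemias with and without an intact Runx1 gene. The family was given as 6 genes of chromosome 15, Ly6a, Ly6c1, Ly6c2, Ly6d, Ly6e and Ly6g, and every probe set annotated to one of these symbols was taken as a member. A probe set is a group of short array oligonucleotides read as 1 value. Among 45101 probe sets, 4 carried a member's symbol: 1421571_a_at for Ly6c1 and Ly6c2 together, 1453304_s_at and 1439773_at for Ly6e, and 1416930_at for Ly6d. These cover 4 of the 6 genes. Ly6d and Ly6e are among the 18193 genes with a probe set of their own on the array, and Ly6c1 and Ly6c2 are not. Ly6a and Ly6g were not analysed here.

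Cells were compared between 3 leukemias with the label Runx1-KO and 3 with the label Control. Both groups were C57BL/6 bone marrow cells transduced with MLL-ENL, an oncogene that joins MLL, a histone methyltransferase, to ENL, an elongation factor, and were grown in congenic mice until the recipients were moribund. In the first group Runx1, a transcription factor gene of blood stem cells and their progeny, had been excised before transduction, and in the second it was intact. Each array came from an independent leukemia, and the share of host cells in the harvest, the way Runx1 was excised and the age of the mice are unknown here.

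Ly6 proteins are small molecules held on the outer cell membrane by a glycosylphosphatidylinositol (GPI) anchor, and all carry the cysteine-rich LU domain that they share with the urokinase receptor. In mouse marrow they serve as standard surface markers. Ly6C, encoded by Ly6c1 and Ly6c2, is high on inflammatory monocytes and present on other myeloid and lymphoid cells. Ly6G marks neutrophils, and the Gr-1 antibody binds Ly6G and, more weakly, Ly6C. Sca-1, the product of Ly6a, marks blood stem cells, Ly6d marks lymphoid progenitors committed to the B lineage, and Ly6e, once called thymic shared antigen 1, is widely expressed on immature cells. Ly6a, Ly6c and Ly6e are inducible by interferon.

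Ly6c1 and Ly6c2 are near copies of each other, and the array read them as 1 value. Their upstream sequences, from RefSeq on build GRCm38.p6, are shown because they are the regions where this pair can differ while its mRNA is read together. Each runs 5′ to 3′ on the minus strand, from 250 bases before the transcription start to 50 after it. The capitals mark matches to the RUNX core motif TGTGGT (or its reverse complement ACCACA) and to the PU.1 motif GAGGAAGT. Ly6c1 lies at chr15:75048788-75049087 and Ly6c2 at chr15:75111922-75112221.
Ly6c1: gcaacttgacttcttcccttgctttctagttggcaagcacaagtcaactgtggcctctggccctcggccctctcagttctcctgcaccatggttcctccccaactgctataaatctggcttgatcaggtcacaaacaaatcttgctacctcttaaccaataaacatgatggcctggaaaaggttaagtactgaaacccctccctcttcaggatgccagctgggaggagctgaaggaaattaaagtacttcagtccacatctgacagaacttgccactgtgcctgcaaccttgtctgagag
Ly6c2: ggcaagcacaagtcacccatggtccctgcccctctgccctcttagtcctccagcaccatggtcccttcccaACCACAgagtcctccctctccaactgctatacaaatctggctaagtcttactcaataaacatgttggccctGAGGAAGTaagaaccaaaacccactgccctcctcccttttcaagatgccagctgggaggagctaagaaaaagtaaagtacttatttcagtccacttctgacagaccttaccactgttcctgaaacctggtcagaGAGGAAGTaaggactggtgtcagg

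Aligned end to end, the pair had the same base in 214 of 340 alignment columns, or 62.9%, with gap columns counted. The windows are out of register, since the bases that open the Ly6c2 window lie further in for Ly6c1. The share therefore depends in part on where the annotated starts lie. The Ly6c2 window held 1 match to TGTGGT, on the opposite strand and starting at base -179 from the transcription start, and 2 matches to GAGGAAGT, at -108 and +27. The Ly6c1 window held 0 of either. Of all 32851 windows of this length in the table, 16.8% held TGTGGT and 3.20% held GAGGAAGT, on either strand. The motifs TGCGGT (6.45% of windows), TTGCNNAA of C/EBP factors (10.8%) and TTCNNNGAA of STAT factors (8.30%) had 0 matches in both windows. RefSeq gives each gene a second start. In that window Ly6c1 had 0 matches to TGTGGT and 1 to GAGGAAGT, and Ly6c2 had 1 and 2. A match of letters is not a bound site.

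Before the members, the labels were checked. Runx1 signal went against the label: on its brightest probe set the intensity was 1128, 1573 and 1629 in leukemias labelled Runx1-KO, against 680.3, 1021 and 850.0 in Control, and all 6 of its probe sets were higher in leukemias labelled Runx1-KO. The sources used here do not say where these probe sets lie relative to the excised part, so a probe set outside it checks nothing, and groups are named below as labelled. The Y-linked gene Eif2s3y was at 3.98 to 6.31 in leukemias labelled Runx1-KO and at 638 to 707 in Control, so the sex of the leukemic cells and the genotype cannot be told apart. Between 51.5% and 59.4% of probe sets on an array exceeded its background limit, set at the brightest of 27 probe sets for spike-in RNAs with no target. The X-linked gene Xist exceeded that limit on every array. It was at 1624 to 1895 in leukemias labelled Runx1-KO and at 330.8, 85.4 and 25.3 in Control 1, 2 and 3. The source of the Xist signal in Control was not tested. The number of arrays limits the precision.

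None of the 4 member probe sets passed limma's test over all 45037 probe sets that are not controls, in which 31 (0.0688%) passed an adjusted p under 0.05, 0.0244% higher and 0.0444% lower in leukemias labelled Runx1-KO. At an unadjusted p under 0.05, 0 of the 4 passed, against 11.3% of all probe sets. The groups stood apart in 3 of the 4, with 1 higher and 2 lower. That held for 19.2% of all probe sets, 8.62% higher and 10.6% lower, and nothing is read from a count out of 4.

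Ly6C signal was strong in every leukemia. The probe set shared by Ly6c1 and Ly6c2, 1421571_a_at, had an intensity of 2264, 2423 and 2057 in leukemias labelled Runx1-KO, against 2496, 2980 and 2762 in Control. All 3 leukemias labelled Runx1-KO lay below the lowest Control array, though the nearest pair, Runx1-KO 2 and Control 1, were close. On the log2 scale the mean was 11.13 ± 0.12 in leukemias labelled Runx1-KO and 11.42 ± 0.13 in Control (SD, n = 3 each). The log2 difference was -0.29 ± 0.20 (SE), or 18.1% less signal in leukemias labelled Runx1-KO, with a 95% interval of -0.77 to 0.19 and a limma adjusted p of 0.627. Which of the 2 genes gave the signal cannot be told from a shared probe set. In bulk samples, fewer cells carrying Ly6C and less Ly6C mRNA per cell cannot be told apart either, and this holds for every gene below.

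Ly6e gave opposite directions on its 2 probe sets. On 1453304_s_at, the brighter one, the intensity was 1605, 1861 and 1797 in leukemias labelled Runx1-KO, against 2391, 2633 and 2137 in Control. The groups did not overlap, and each leukemia labelled Runx1-KO was lower. The log2 mean was 10.77 ± 0.11 in leukemias labelled Runx1-KO and 11.22 ± 0.15 in Control (SD, n = 3 each), a log2 difference of -0.44 ± 0.20 (SE, 95% interval -0.93 to 0.05, limma adjusted p = 0.472).

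On 1439773_at the order was turned round. Its intensity was 145.2, 93.8 and 138.9 in leukemias labelled Runx1-KO, against 77.7, 84.1 and 88.3 in Control. Runx1-KO 1 and 3 stood well above all Control arrays, and Runx1-KO 2 only just above Control 3. The log2 mean was 6.95 ± 0.35 in leukemias labelled Runx1-KO and 6.38 ± 0.09 in Control (SD, n = 3 each), a log2 difference of 0.57 ± 0.25 (SE, 95% interval -0.02 to 1.16, limma adjusted p = 0.454). Both probe sets were above background on all 6 arrays, and across the 6 arrays their log2 levels had a Pearson r of -0.86, given as a description.

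The disagreement can be put as 1 value per array, the log2 ratio of 1439773_at over 1453304_s_at, a measure chosen after the values were seen. It was -3.47, -4.31 and -3.69 in leukemias labelled Runx1-KO, against -4.94, -4.97 and -4.60 in Control. All 3 leukemias labelled Runx1-KO lay above Control, with means of -3.82 ± 0.44 in leukemias labelled Runx1-KO and -4.84 ± 0.21 in Control (SD, n = 3 each), a difference of 1.01. Since each probe set separates the groups, in opposite directions, their ratio had to separate them too, and it is given with no test. Among 4638 genes with 2 or more probe sets above background on all 6 arrays, 97 (2.09%) had one probe set wholly higher and another wholly lower in leukemias labelled Runx1-KO, Ly6e among them. The suffix _s_at marks a probe set whose probes match more than 1 transcript, and the sources used here do not say which stretch of Ly6e mRNA each probe set reads. Gapdh signal at the 3′ end over that at the 5′ end, which rises with RNA degradation, was 7.10 in Runx1-KO 1 and 2.67 to 3.02 on the other arrays. Runx1-KO 1 was also the lowest array on 1453304_s_at and the highest on 1439773_at. Without it the log2 differences were -0.38 (adjusted p = 0.483) and 0.46 (adjusted p = 0.489).

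Ly6d signal was close to background. The intensity of 1416930_at was 14.7, 24.6 and 15.7 in leukemias labelled Runx1-KO, against 28.52, 22.04 and 29.02 in Control. Only Runx1-KO 2 exceeded its background limit in the first group, while all 3 Control arrays did, and the groups overlapped because Runx1-KO 2 was above Control 2. The fitted log2 difference was -0.56 ± 0.28 (SE, 95% interval -1.23 to 0.11, limma adjusted p = 0.504). With leukemias labelled Runx1-KO that lay below background raised to their limits, the estimate for Ly6d was 1.33-fold lower. That is a point estimate from overlapping groups and not a smallest difference.

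**Figure D1:**
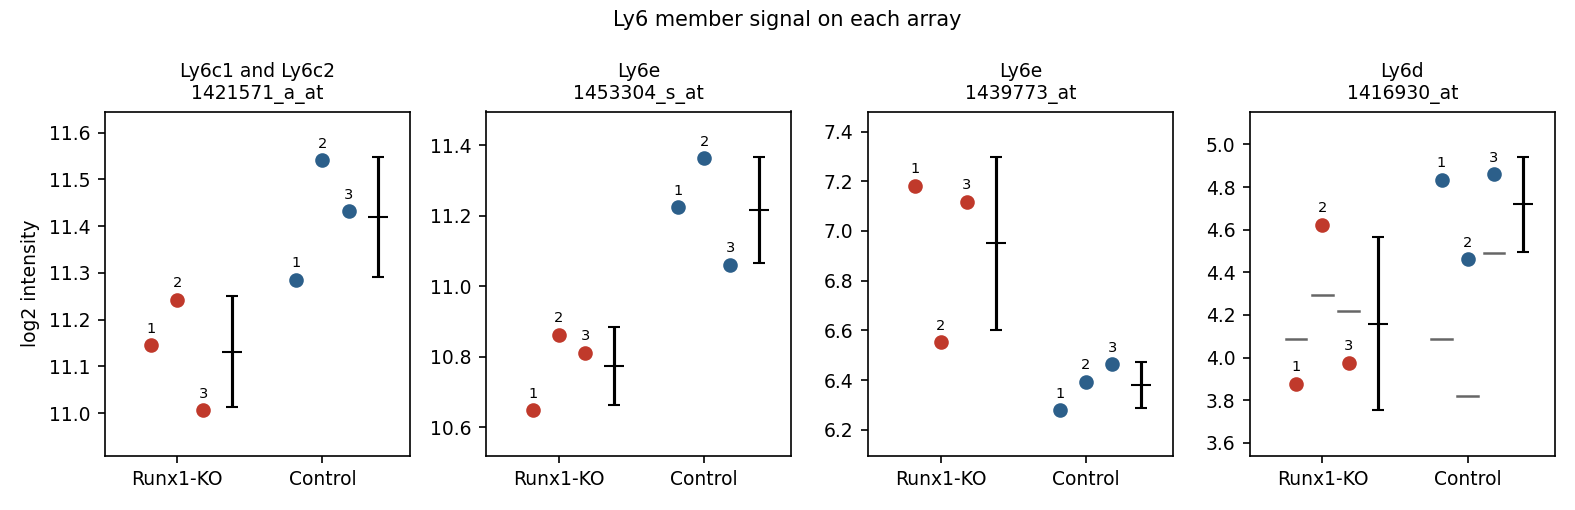
Log2 intensity of the 4 Ly6 probe sets on each array (numbered points), with leukemias labelled Runx1-KO at left and Control at right of each panel, black bars for mean ± SD (n = 3), and, for Ly6d, grey lines for each array's background limit. Leukemias labelled Runx1-KO are all lower than Control for Ly6c1 and Ly6c2 and for Ly6e on 1453304_s_at, all higher for Ly6e on 1439773_at, and overlap Control for Ly6d; each panel has its own axis range, which does not start at 0.

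The members lie in a stretch of chromosome 15 rich in their relatives. Ordered by RefSeq, the 35 protein-coding genes from Adgrb1 to Top1mt include 23 LU domain genes, and 24 values were measured there, with Ly6c1 and Ly6c2 as 1. Of these, 7 were above background on all 6 arrays and 13 on none. The bright ones were Adgrb1, Jrk, Slurp1, Ly6e, Ly6c1 with Ly6c2, Zfp41 and Top1mt. Ly6i, which lies between Ly6e and Ly6a, and Ly6f and Ly6g2, beyond Ly6g, were at or below background on every array, as were Ly6h and Gpihbp1 at the far end. None of the 24 passed the test, and the lowest adjusted p in the stretch was that of Lynx1, a regulator of nicotinic receptors in neurons (0.228), which was at or below background on every array.

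**Figure D2:**
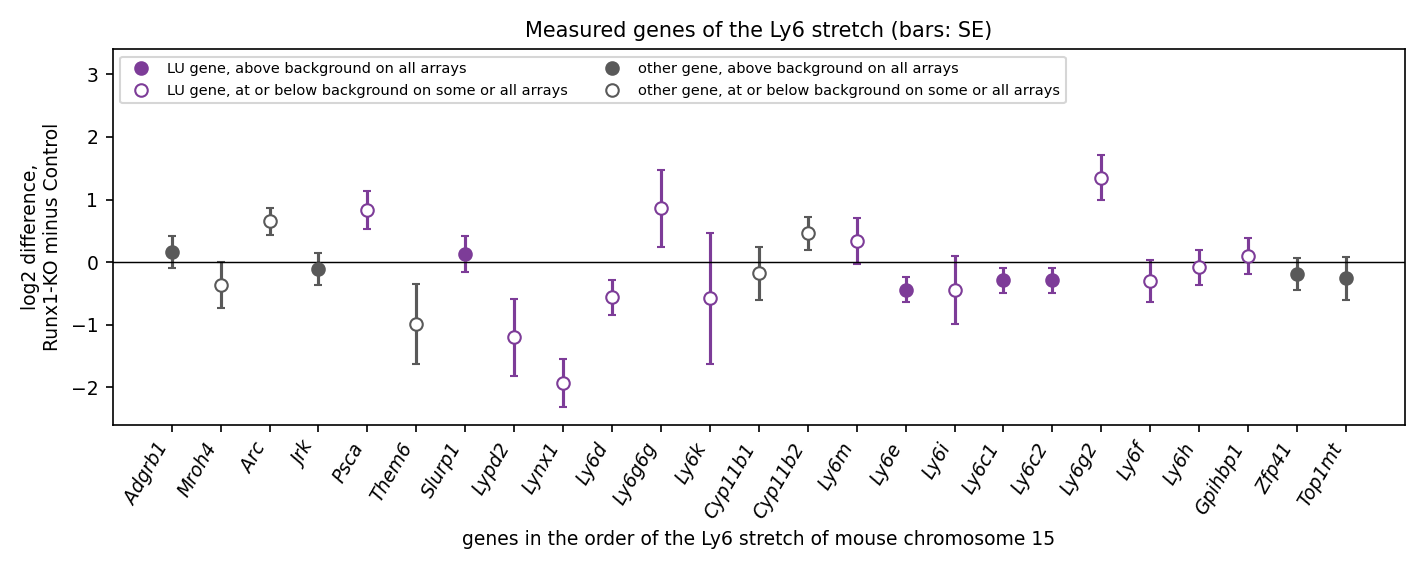
Log2 difference (Runx1-KO minus Control) with its SE for each measured gene, in the order of the Ly6 stretch of mouse chromosome 15. Purple points are LU domain genes, grey points other genes, and filled points were above background on all 6 arrays. Ly6c1 and Ly6c2 show 1 shared value, and Ly6e is shown by its brighter probe set, 1453304_s_at. The filled points all lie between -0.44 and 0.16. The other Ly6e probe set, 1439773_at, with a log2 difference of 0.57, is not drawn.

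A wider list of 17 neighbours outside the LU family, measured out of 22 listed, had 0 past the test in either direction, against 0.0660% of 18193 genes called by their brightest probe set, 0.0220% higher and 0.0440% lower. It held 5 higher and 11 lower members, with a median log2 difference of -0.10, or 0.00 with genes below background at their bound, and -0.05 without Runx1-KO 2. The bright gene of lowest p was Gsdmd, which encodes the pore-forming protein gasdermin D, at a geometric mean intensity of 274.8 in leukemias labelled Runx1-KO and 514.0 in Control (log2 difference -0.90 ± 0.21, limma adjusted p = 0.259). Arc and Tigd5, next by p, were at or below background on every array. Over all genes the median log2 difference was -0.01, with 8934 higher and 9253 lower.

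Other LU domain genes, in the cluster or elsewhere, were a few bright genes and many at background. Of 39 listed, 28 were measured, of which 17 were higher and 11 lower. The 0 members past the test compare with the 0.0660% above. The median was 0.03, or 0.00 with genes below background at their bound, and 18 of the 28 were at or below background on every array. The members of lowest p, Lynx1, Ly6g2 and the stem cell antigen gene Psca, were all in that dim set, so no fold is stated for them. Groups did not overlap in 4 higher members (14.3%) and 2 lower ones (7.14%), against 9.20% and 11.8% of all genes. Both lower ones, Lynx1 and Lypd2, were at or below background on every array, as were Ly6g2 and Psca among the higher ones. The other higher ones were Plaur and Cd177.

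The 6 relatives above background on all arrays, named here after their values were seen, were Plaur, Cd177, Cd59a, Pinlyp, Slurp1 and Acrv1. Plaur encodes the urokinase receptor of migrating myeloid cells. Its intensity was 700.1, 1244 and 670.9 in leukemias labelled Runx1-KO, against 655.1, 438.7 and 478.0 in Control, with the groups just apart and Runx1-KO 2 far above the rest (log2 difference 0.70 ± 0.32, limma adjusted p = 0.476). Cd177, a GPI-anchored protein of neutrophils, stood at 856.8, 1052 and 863.6 in leukemias labelled Runx1-KO, against 788.4, 660.1 and 717.4 in Control, again without overlap (0.35 ± 0.21, limma adjusted p = 0.564). Neither passed the test. Cd59a, which protects cells from complement, was even in leukemias labelled Runx1-KO at 58.3 to 66.8, while in Control it was 144.1 in Control 1 and 41.23 and 37.96 in the others. The phospholipase inhibitor gene Pinlyp, the secreted LU protein gene Slurp1 and the sperm acrosome gene Acrv1 overlapped between the groups, with log2 differences of 0.04 to 0.32.

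**Figure D3:**
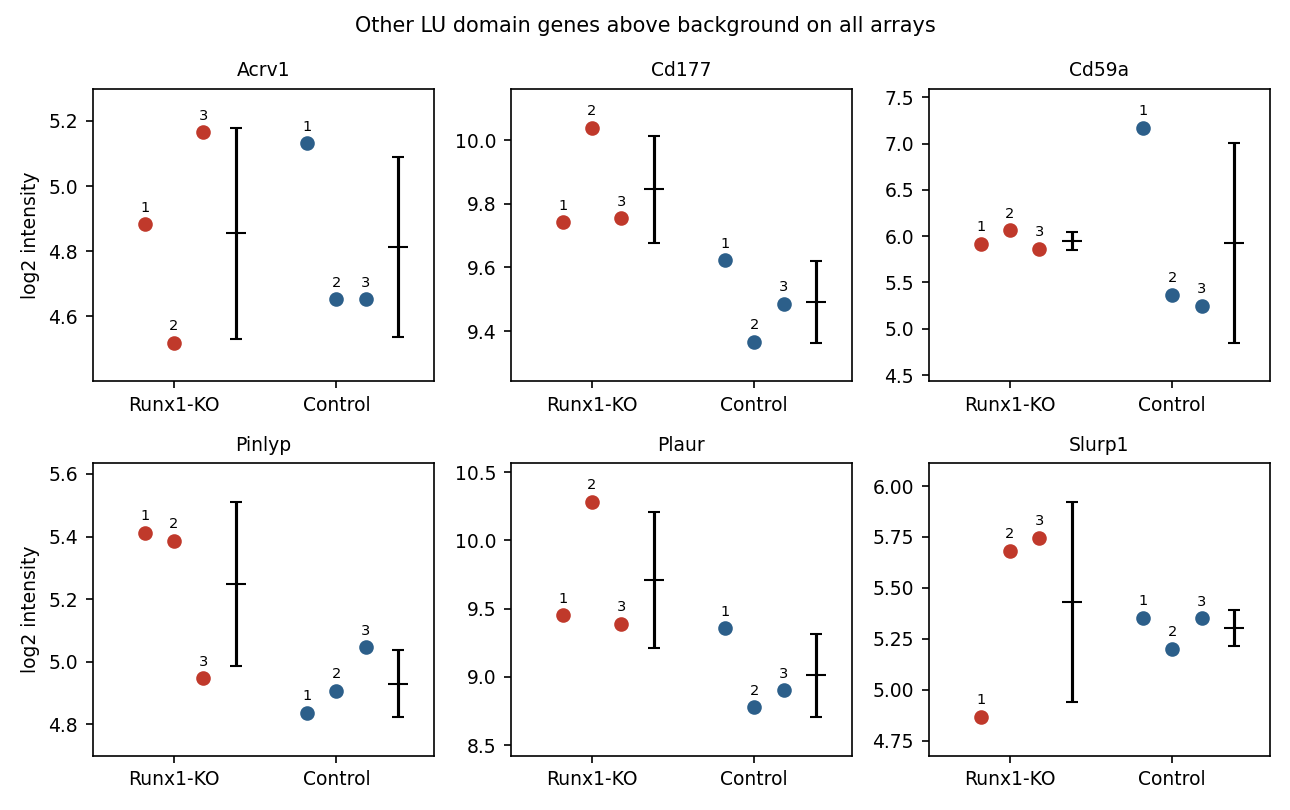
Log2 intensity on each array (numbered points) of the 6 other LU domain genes above background on all arrays, with leukemias labelled Runx1-KO at left, Control at right and black bars for mean ± SD (n = 3). Groups stand apart for Plaur and Cd177 and overlap for the others, and Control 1 stands alone for Cd59a; axis ranges differ and do not start at 0.

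Ly6 proteins reach the surface through the GPI anchor pathway, in which PIG proteins build the anchor and a transamidase attaches it. Of 29 genes listed, 28 were measured, of which 9 were higher, 19 lower and 0 past the test, with a median log2 difference of -0.22, or -0.18 with genes below background at their bound. The groups did not overlap in 3 higher and 7 lower members (10.7% and 25.0%, against 9.20% and 11.8% of all genes). Without Runx1-KO 1 the median was -0.33. Pigo, which adds an ethanolamine phosphate to the anchor, had geometric means of 356.3 in leukemias labelled Runx1-KO and 210.3 in Control (log2 difference 0.76 ± 0.22). Pigc, a subunit of the enzyme of the first step, had 79.5 in leukemias labelled Runx1-KO and 135.7 in Control (-0.77 ± 0.24). Pigf, needed for ethanolamine phosphate transfer, had 49.6 in leukemias labelled Runx1-KO and 111.1 in Control (-1.17 ± 0.42). Their limma adjusted p-values ran from 0.325 to 0.394.

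Interferon-induced genes were listed because Ly6a, Ly6c and Ly6e belong among such genes. Of 36 listed, 33 were measured, with 6 higher, 27 lower and 0 past the test. Their median difference was -0.58 on the log2 scale and -0.36 once genes below background were put at their bound. The median was -0.36 without Runx1-KO 2, -0.37 without Control 2 and -0.415 without Control 1. Groups did not overlap in 0 higher and 5 lower members (0.0% and 15.2%, against 9.20% and 11.8% of all genes). Ifi35, an interferon-induced protein gene, had geometric means of 487.6 in leukemias labelled Runx1-KO and 901.4 in Control (-0.89 ± 0.22). Psmb8, an immunoproteasome subunit, had 541.3 in leukemias labelled Runx1-KO and 880.5 in Control (-0.70 ± 0.23). Irf9, the DNA-binding part of the type I interferon complex, had 51.7 in leukemias labelled Runx1-KO and 91.6 in Control (-0.83 ± 0.31). Their limma adjusted p-values ran from 0.275 to 0.412. The summed intensity of the list was 4212 to 4792 in leukemias labelled Runx1-KO and 5221 to 8223 in Control, so the groups did not overlap. A few genes stood out in Control 1. Rsad2 was at 1657 there (186.2 and 34.2 in Control 2 and 3), Isg20 at 403.1 (41.2 and 20.85) and Cxcl10 at 355.0 (55.5 and 72.49). Ly6c1 with Ly6c2 and Ly6e on 1453304_s_at were also lower in all 3 leukemias labelled Runx1-KO, whereas Ly6e on 1439773_at was higher in all 3 and Ly6d overlapped. Whether this list has a part in the Ly6 values was not tested.

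Genes that accompany Ly6C on monocytes were mixed. Of 10 measured Ly6C-high monocyte genes, out of 11 listed, 5 were higher, 5 lower and 0 past the test, with a median of 0.01. Csf1r, a growth factor receptor of monocytes and macrophages, had a log2 difference of -0.87 ± 0.23, the membrane protein gene Ms4a4c one of -1.90 ± 0.59, and Ccr2, the chemokine receptor with which these monocytes leave the marrow, one of -1.15 ± 0.45 (limma adjusted p = 0.284, 0.341 and 0.416). These 3 had the lowest p in the list, and all were lower. Groups did not overlap in 2 higher members and 2 lower ones of the 10 (against 9.20% and 11.8% of all genes). The higher ones were Chil3 (log2 difference 0.67 ± 0.33) and Ifitm6 (1.09 ± 0.49), and the lower ones Csf1r and Ms4a4c. The list's summed intensity overlapped, at 15950 to 20266 in leukemias labelled Runx1-KO and 14102 to 19115 in Control. Of 10 measured Ly6C-low monocyte genes, 3 were higher, 7 lower and 0 past the test, with a median of -0.22, or -0.13 without Runx1-KO 3. Pglyrp1, a bactericidal protein also stored in neutrophil granules, differed by 1.71 ± 0.44 and the muscle-type enolase gene Eno3 by 0.57 ± 0.22. Cx3cr1, the fractalkine receptor of patrolling monocytes, exceeded background in 0 of 3 leukemias labelled Runx1-KO and in 2 of 3 Control leukemias. The same held for Cd36. Among the 10 Ly6C-low genes, groups also did not overlap in 2 higher members, Pglyrp1 and Eno3, and 2 lower ones, Cx3cr1 and Cd36.

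Mature neutrophil genes, which in marrow go with Ly6G, were mostly higher, though none passed the test. Of 16 measured, out of 21 listed, 15 were higher, 1 lower and 0 past the test, with a median log2 difference of 1.15, or 0.98 with genes below background at their bound. Groups did not overlap in 10 higher members (62.5%, against 9.20% of all genes). Summed intensity was 17716 to 21421 in leukemias labelled Runx1-KO and 9261 to 16930 in Control, and 0 of the 16 were below background throughout. Ly6e on 1439773_at and the relative Cd177 lay on the same side as this list, and Ly6c1 with Ly6c2, Ly6d and Ly6e on 1453304_s_at on the other. The lowest p in this list belonged to Cxcr2, the chemokine receptor of mature neutrophils (limma adjusted p = 0.0601). With Control arrays below background raised to their limits, its estimate was 5.84-fold higher in leukemias labelled Runx1-KO. Il1r2, a decoy receptor for interleukin 1, was 9.35-fold higher and the granule protein gene Ngp 4.54-fold (limma adjusted p = 0.131 and 0.166). Whether neutrophil content has a part in the member values was not tested.

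Stem and progenitor genes, the setting in which Sca-1 is used, had 10 higher and 6 lower of 16 measured, 0 past the test and a median of 0.32, or 0.00 with genes below background at their bound. Leaving out Control 1 gave 0.14 and leaving out Control 3 gave 0.21. Groups did not overlap in 4 higher and 3 lower members (25.0% and 18.8%, against 9.20% and 11.8% of all genes). Their summed intensity was 3995 to 4664 in leukemias labelled Runx1-KO and 5148 to 6520 in Control, without overlap and lower although most members were higher. Most of the sum came from Myb, a transcription factor of progenitors, with geometric means of 2211 in leukemias labelled Runx1-KO and 2579 in Control, and from the surface receptor gene Cd93, with 1044 in leukemias labelled Runx1-KO and 1813 in Control. Cd48, a SLAM family ligand, had geometric means of 231.9 in leukemias labelled Runx1-KO and 629.8 in Control (log2 difference -1.44 ± 0.22, limma adjusted p = 0.140). The interferon-inducible membrane gene Ifitm1 had 62.7 in leukemias labelled Runx1-KO and 25.5 in Control (1.30 ± 0.23, limma adjusted p = 0.190). Procr, the protein C receptor found on stem cells, was above background in 2 of 3 leukemias labelled Runx1-KO and in 0 of 3 Control arrays.

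Markers of other cells that could be in the harvest, some of which carry Ly6 antigens, were summed too. T and NK cell genes summed to 206 to 367 in leukemias labelled Runx1-KO and 303 to 490 in Control, with 4 of 16 higher, 12 lower, 0 past the test and 5 below background throughout (Cd4, Cd8b1, Gata3, Gzmb and Ncr1). On the log2 scale their median difference was -0.90 (0.00 at the bound for genes below background), and -0.50 without Control 1. Groups did not overlap in 1 higher and 7 lower T and NK cell genes (6.25% and 43.8%, against 9.20% and 11.8% of all genes). All 7 lower ones were at or below background in every leukemia labelled Runx1-KO, and Gata3, Gzmb and Ncr1 among them on every array. The share of 43.8% thus rests on values near background. The higher one, Nkg7, exceeded background in 3 of 3 leukemias labelled Runx1-KO and in 2 of 3 Control leukemias. B cell and early B progenitor genes, the lineage that Ly6d marks, summed to 469 to 783 in leukemias labelled Runx1-KO and 487 to 692 in Control. Of 15, 9 were higher, 6 lower and 0 past the test, with Pax5, Rag1 and Dntt below background throughout and 6 above it on all arrays. The brightest, the surrogate light chain gene Igll1, had geometric means of 204.0 in leukemias labelled Runx1-KO and 134.9 in Control. Vpreb1, of lowest p among these B cell genes, was at 34.2, 9.55 and 13.2 in leukemias labelled Runx1-KO. In Control it was at 43.2, 42.3 and 43.0 (limma adjusted p = 0.370). Groups did not overlap in 2 higher and 1 lower B cell genes (13.3% and 6.67%, against 9.20% and 11.8% of all genes). Stromal and endothelial genes, since endothelium carries Ly6a and Ly6c1, summed to 285 to 341 in leukemias labelled Runx1-KO and 298 to 529 in Control. Of 16, 10 were higher, 6 lower and 0 past the test, and 7 were below background throughout (Cdh5, Kdr, Emcn, Esam, Col3a1, Dcn and Lum). Other endothelial markers were measurable: Pecam1, also found on blood cells, had geometric means of 72.4 in leukemias labelled Runx1-KO and 116.1 in Control, and Vwf had 33.7 in leukemias labelled Runx1-KO and 22.1 in Control, both above background on all 6 arrays. Plasmacytoid and dendritic cell genes summed to 698 to 945 in leukemias labelled Runx1-KO and 794 to 1930 in Control, with 3 of 13 higher, 10 lower, 0 past the test and Siglech, Zbtb46, Xcr1 and Ciita below background throughout. Their median log2 difference was -0.25, or -0.69 without Control 2. Bst2, Ccr9, Tcf4 and Itgax were among 6 members of this list above background on all 6 arrays. Their geometric means were 98.4, 51.5, 306.1 and 29.3 in leukemias labelled Runx1-KO and 114.0, 57.5, 307.1 and 40.9 in Control. In this list groups did not overlap in 1 higher and 2 lower members (7.69% and 15.4%, against 9.20% and 11.8% of all genes).

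Erythroid genes were highest in Control 1 in 14 of 14 measured members, 0 of which passed the test, with a summed intensity of 122 to 319 in leukemias labelled Runx1-KO and 121 to 8436 in Control. On the log2 scale their median difference was -1.18 (0.00 at the bound for genes below background), and 0.42 without Control 1. Cd59a was highest in that array too, as were 3064 of all 18193 genes. None of the 4 Ly6 probe sets was highest there, and nothing is read from a count out of 4. Ly6d was at 28.52 in Control 1, close to its highest value of 29.02 in Control 3, and 1439773_at was at its lowest there (77.69). Whether the erythroid signal of Control 1 has a part in the Ly6 values was not tested. Without Control 1 the log2 differences were -0.36 for Ly6c1 and Ly6c2, -0.44 for Ly6e on 1453304_s_at, 0.52 on 1439773_at and -0.50 for Ly6d, with adjusted p-values of 0.658 to 0.706.

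**Figure D4:**
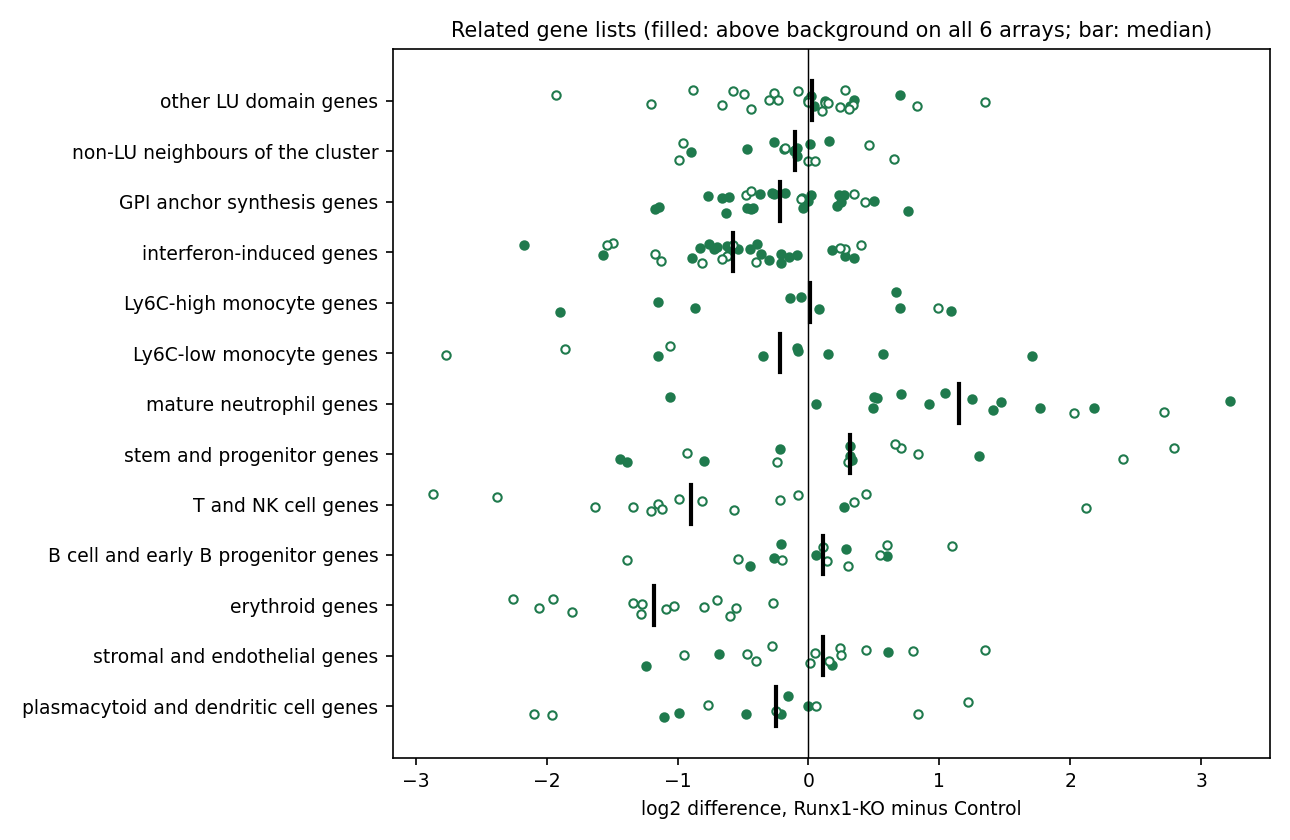
Log2 difference (Runx1-KO minus Control) of each measured gene in 13 related lists, 1 point per gene, filled where the gene was above background on all 6 arrays, with a black bar at the list's median. Mature neutrophil genes lie mostly to the right (median 1.15), and erythroid (-1.18), T and NK cell (-0.90) and interferon-induced genes (-0.58) mostly to the left, while the medians of other LU domain genes (0.03) and Ly6C-high monocyte genes (0.01) lie at 0.

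Genes whose levels followed the members most closely were sought among 10789 genes above background on at least 3 arrays. Genes named only by an identifier were left out. The likeness was Pearson's r of log2 levels over the 6 arrays, which share their groups, and is a description only. For Ly6c1 and Ly6c2 the closest were Ankzf1 (0.996), Capn10 (0.996) and Wasl (0.993), for Ly6e on 1453304_s_at Acyp1 (0.998), Mrps36 (0.993) and Rdm1 (0.992), and for Ly6d Gpr18 (0.993), Anxa4 (0.991) and Edem1 (0.989). Of the 10789 genes, 30, 76 and 32 reached an r of at least 0.95 for these 3 probe sets, so the named genes were not the only close ones. Acyp1, which encodes an acylphosphatase, had an intensity of 620.4, 830.0 and 773.8 in leukemias labelled Runx1-KO, against 1201, 1476 and 1036 in Control, the same order of arrays as Ly6e. Between the members themselves, Pearson's r was 0.81 for Ly6c1 and Ly6c2 against Ly6e on 1453304_s_at, 0.66 and 0.67 for Ly6d against these, and -0.79 to -0.93 for 1439773_at against the others.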

How the data were processed

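RNA of 6 leukemias was extracted with a spin-column kit and labelled with biotin as fragmented cDNA, per the labels' protocols. The deposited values are linear probe set intensity values on a common scale. The sources used here do not say how the authors summarised and scaled them. Gene names came from the platform annotation: 34958 probe sets had 1 symbol, 932 several and 9211 none. RefSeq tables gave current symbols (0 changed), neighbour order and upstream sequences. Where the text speaks of a gene, its probe set with the highest mean intensity was used.

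Log2 intensities were fitted with limma 3.58.1 (lmFit, eBayes) in R 4.3.3, two-sided, over 45037 probe sets, with Benjamini-Hochberg adjustment at 0.05. The fit used all probe sets because 1 member value carries 2 symbols. The procedure was tested on simulated data with shifts larger than the fitted differences of the members. That test therefore does not cover differences of their size. A gene at or below each array's background limit has no fold, and where the lower group lay partly below it, those arrays were raised to their limits. List counts and medians stand beside those of all genes, with no list test. The members, lists and background limit were chosen with earlier results of these data known. From each list the 3 members of lowest p could be named. Replicate numbers did not pair the arrays.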

Additional observations from a re-analysis of the deposited data

How the results depend on the processing

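The 4 member values were recomputed under 12 kinds of alternative, 63 values in all, of which 62 kept their direction and stayed short of the threshold. The exception was Ly6e as the mean of its 2 probe sets, which gave 0.06465 (adjusted p = 0.911), since they run opposite ways. Log2 differences ran from -0.36 to -0.21 for Ly6c1 and Ly6c2, from 0.41 to 0.77 for 1439773_at and from -0.79 to -0.32 for Ly6d, and the lowest adjusted p of any member was 0.132, for 1453304_s_at with a variance trend and robust fitting. Ly6d had no value under the intensity filter, nor had the shared Ly6c probe set or 1439773_at with 1 value per gene. A setting under which no member passed does not show that the values did not differ. The probe sets called over the whole table, 11 higher and 20 lower, depended on the setting. There were 29 higher and 62 lower with an offset of 16 before the log, 28 and 44 with a mean intensity of at least 32, 82 and 121 with trend and robust fitting, 4 and 9 with 1 probe set per gene, 1 and 4 with unmoderated statistics, 19 higher with array weights and 10 lower with the mean per gene. With any 1 array left out, 1 to 3 were higher and 3 to 6 lower. With the replicate number as a block, limma called 0 higher and 0 lower (4464 at an unadjusted p under 0.05). Deviations of same-numbered arrays had correlations of 0.01, -0.076 and 0.03, so the numbers do not pair the arrays, and the block changed no member's call (adjusted p = 0.559 to 0.707). Without both arrays numbered 1, limma called 0 higher and 0 lower (5065 at an unadjusted p under 0.05). Median differences of the lists changed sign under some setting for other LU domain, Ly6C-high monocyte, B cell, erythroid and stromal genes, and kept it for interferon-induced genes (-0.70 to -0.36), GPI anchor genes (-0.33 to -0.17) and neutrophil genes (0.85 to 1.39). The cause of these shifts was not tested. Ly6d and the dim relatives are limited by signal near background.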
